A study of Mus musculus with 3 samples.

Results

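Histone genes were examined in cultured mouse T-helper 1 cells, comparing the replication-dependent genes of the histone clusters with the genes of the histone variants. The members were all protein-coding genes whose GENCODE symbol starts with Hist1h, Hist2h, Hist3h or Hist4h (replication-dependent) or with H2af, H3f3 or H1f (variant). They numbered 80 of the 50600 genes listed for each library, and of 21764 protein-coding genes, with 65 replication-dependent members and 15 variants. A further 9 genes with such symbols were not protein-coding, 7 of them processed pseudogenes, and were left out.

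Nucleosomes wrap DNA around the core histones H2A, H2B, H3 and H4, and linker histone H1 binds where the DNA enters and leaves. Most of this protein is made during S phase from small, intronless, clustered genes whose mRNAs usually end in a conserved stem-loop rather than a polyA tail, and the stem-loop binding protein Slbp acts on that end. Variant histones are made from scattered genes, mostly with polyadenylated mRNAs, and are deposited outside replication too: H3f3a and H3f3b code for the replacement form of H3, H2afz and H2afv for H2A.Z, H2afx for H2A.X of the DNA damage response, H2afy and H2afy2 for macroH2A, and H1f0 for a linker histone of slowly dividing cells. Activated T cells divide rapidly and so need new histone with each S phase.

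The data were 3 RNA sequencing libraries of 1 group, T-helper 1 primary cells of the strain C57BL/6NJ obtained with a differentiation protocol for CD4 T cells. T-helper 1 cells are the CD4 T cells that make interferon gamma, and the file headers carry 24 hr for all of them, without saying from which event. The labels name biological replicates 1, 2 and 3, give them the same donor entry, give neither age nor sex, and leave unsaid if separate animals or cultures were used, so p-values measure only the spread between these libraries, which may be technical. The assay is labelled total RNA, whereas the protocol named for the libraries is for polyA+ RNA, so what RNA was selected is uncertain, and stem-loop histone mRNAs without a tail are the RNAs that such a selection bears on.

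The deposited values were read pair counts per gene, with totals of 3553547, 2945353 and 3369468 in replicates 1, 2 and 3. A gene is called counted here when it had more than 3 counts in every library, 3 being what a count of 0 allows (0.844 to 1.02 CPM, counts scaled to the library total). This limit is for counting error alone, because pairs that carry no molecular identifier may be copies of 1 molecule. Pairs were assigned to a gene on one strand only, with strand option 1 of the counting program. Genes that share exon bases with an exon on the opposite strand held 68.0%, 77.5% and 70.3% of all counts. Whether the strand option matches the libraries was not tested (the sources used here name no kit), so every level below is a level on the strand that the option assigned. All 6 T cell markers were counted, among them Cd4 with 979, 506 and 880 counts. Of 6 T-helper 1 markers 4 were counted, with Tbx21 at 15, 11 and 8 counts, while Ifng (2, 2 and 1) and Cxcr3 (2, 1 and 1) were not. NK cell markers were all at 0 counts (3 of 3) and 0 of 4 germ cell markers were counted. Counted markers of other cells were Csf1r with 1429, 1418 and 1460 counts, above Cd4, and Cd68 with 22, 6 and 7 (2 of 5 myeloid markers), Cd8b1 with 30, 20 and 36 (1 of 2 CD8 T cell) and Cd79a with 19, 18 and 22 (1 of 5 B cell). Csf1r overlaps an opposite-strand exon and the other 3 do not, and the part of other cells in the results was not tested.

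The sequence that sets the replication-dependent class apart is the stem-loop near the mRNA end, printed for the 10 replication-dependent members that were counted and for H2afx. Each run is read 5′ to 3′ on the transcript strand of GENCODE M21 (mm10), with the stem-loop match in capitals and up to 7 flanking bases in lower case.
Hist1h1c: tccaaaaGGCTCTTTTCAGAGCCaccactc
Hist1h1e: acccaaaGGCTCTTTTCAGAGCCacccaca
Hist1h2ae: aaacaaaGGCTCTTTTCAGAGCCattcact
Hist1h2bj: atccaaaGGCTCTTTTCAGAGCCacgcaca
Hist1h3a: aaccaaaGGCTCTTTTCAGAGCCacacacg
Hist1h3c: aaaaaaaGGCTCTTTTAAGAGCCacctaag
Hist1h4b: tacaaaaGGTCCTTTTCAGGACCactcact
Hist1h4c: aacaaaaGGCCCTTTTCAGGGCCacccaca
Hist1h4d: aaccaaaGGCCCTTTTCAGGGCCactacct
Hist1h4i: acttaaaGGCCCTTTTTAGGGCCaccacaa
H2afx: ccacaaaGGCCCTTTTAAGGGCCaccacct
The motif was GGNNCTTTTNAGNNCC, with N for any base. On the transcript strand it was found in 42 of 65 replication-dependent members (64.6%), in 1 of 15 variants, H2afx, and in 33 of the 21684 other protein-coding genes (0.152%). On the other strand it was found in 0 of the members and in 0.101% of all protein-coding genes. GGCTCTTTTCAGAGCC was the commonest form, with 24 of the 43 member sites, and H2afx alone carried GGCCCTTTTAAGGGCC. The H2afx site lies at chr9:44335233-44335262 (plus strand, flanks included) and the Hist1h2bj site at chr13:22043631-22043660 (plus strand). The polyadenylation hexamer AATAAA stood in the last 40 bases of a transcript of 9 variants (60%) and 15 replication-dependent members (23.1%), against 68.3% of all protein-coding genes. On the other strand it stood there in 6.67%, 1.54% and 11.3%. A match is a description of letters and not of a working site, and members without one had annotated transcripts that lack these letters: 12 of the 23 gene models of replication-dependent members without a stem-loop held coding bases only.

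Of 65 replication-dependent members 10 were counted (15.4%), and of 15 variants 8 (53.3%), beside 45.1% of all protein-coding genes. Among protein-coding genes with 300 to 900 exon bases, the length of most replication-dependent genes, 14.9% were counted. Of the replication-dependent members of that length 9 of 55 were counted (16.4%), a share near that background at this limit. Below the limit they differed: 987 of the 1392 protein-coding genes of that length had 0 counts in every library, and 14 of the 55 members. Median levels were 0 and 1.97 ± 0.634 counts per kb of exon (SD, n = 3). Above 900 exon bases 47.4% of protein-coding genes were counted, and 8 of 12 variants of that length (66.7%). The difference between the classes was not tested. Of the 65 replication-dependent members, 19 had 0 counts in every library, 22 had a count but never more than 3, and 14 passed 3 counts in 1 or 2 libraries. Over all 21764 protein-coding genes these numbers were 8593, 2050 and 1298. Of the variants, 5 had 0 counts throughout. A second limit was 1 TPM or more in every library (counts per exon length, scaled to the same total in each library). It was passed by 18 of 65 replication-dependent members (27.7%) and 8 of 15 variants (53.3%), beside 41.2% of protein-coding genes. At 300 to 900 exon bases 17 of 55 replication-dependent members passed (30.9%), beside 18.8% of protein-coding genes. On short models this limit lies under 3 counts: Hist1h2bl had 1 count and 1.38 TPM in replicate 1. All 8 members known for expression in germ cells (H1fnt, H1foo, H2afb1, H2afb2, H2afb3, Hist1h1t, Hist1h2aa and Hist1h2ba) had 0 counts in every library.

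Counts summed over the replication-dependent members were 207, 157 and 191, against 2586, 1625 and 2230 over the variants. The variant sum was thus 11.5 ± 1.08 times as high (SD, n = 3), and 2.11 ± 0.251 times per exon length in TPM, with values of 2.35, 1.85 and 2.11. It was higher in every library on both scales. Without Hist1h2bj and H3f3b, the highest member of each class, the log2 ratio of replication-dependent to variant TPM moved from -1.07 to -0.62. The median member lay at log2(TPM + 1) of 0.70, 0.34 and 0.99 for replication-dependent genes and 3.54, 2.05 and 3.39 for variants, a difference of -2.32 ± 0.56 (SD, n = 3). Over all protein-coding genes the median was 0.386 ± 0.0703 TPM, beside 0.628 ± 0.366 and 7.76 ± 4.03 TPM. An exact sign-flip test over 3 libraries cannot go below 0.25, so none was run. The median difference shrank to -0.46 without members that overlap an opposite-strand exon, where 5 of the 10 variants left had 0 counts in every library. The summed log2 ratio was -1.02 without those members. Without germ cell members the median difference was -3.86. It was 0.18 ± 0.49 (SD, n = 3), of the other sign but smaller than its SD, when the classes were set by the stem-loop sequence. That setting moves 23 cluster genes to the other side and H2afx to the first. In bulk RNA, fewer cells with a transcript and less of it per cell cannot be told apart.

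**Figure D1:**
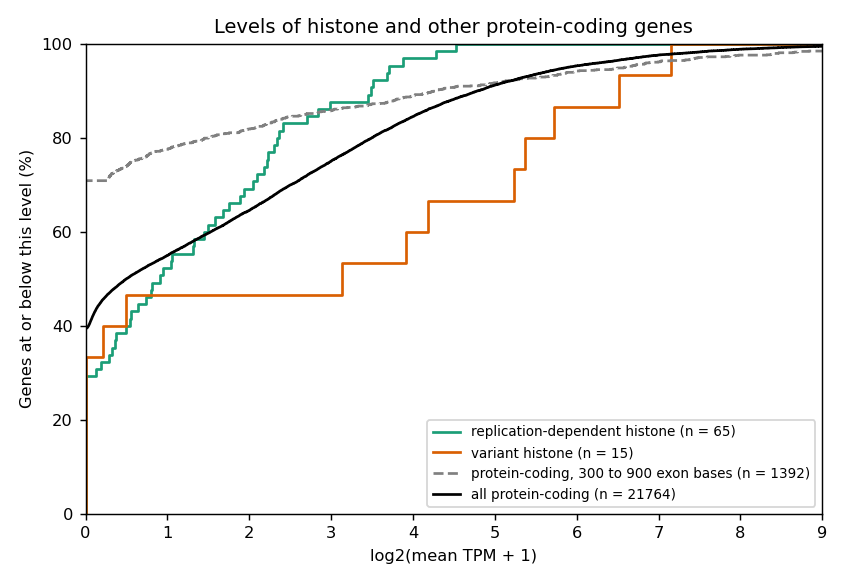
Cumulative share of genes (y axis, percent) at or below a level (x axis, log2 of mean TPM + 1 over the 3 libraries) for 65 replication-dependent members, 15 variants, protein-coding genes of 300 to 900 exon bases and all 21764 protein-coding genes. The variant line lies to the right of the replication-dependent line over most of its course, and 8 of 15 variants were counted.

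The variant genes that were counted spanned a wide range of counts per kb of exon. H3f3b (chr11:116021912-116027962, minus strand), which with H3f3a codes for replacement H3, had 989, 558 and 791 counts, or 262 ± 72.5 per kb (SD, n = 3). H2afz, the main H2A.Z gene at chr3:137864487-137866922, had 349, 213 and 329 counts, or 167 ± 41.3 per kb. H2afy, a macroH2A gene at chr13:56073619-56136361, had 719, 544 and 695 counts on a long model of 6809 exon bases, or 95.9 ± 13.9 per kb. Those 3 genes stood in the same order per kb in every library and made up 69.7%, 70.8% and 72.2% of variant TPM.

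A middle pair followed that could not be ordered. H2afx, whose product is phosphorylated at DNA breaks, had 146, 72 and 92 counts (74.7 ± 27.7 per kb), and H2afj, an H2A gene on chromosome 6, had 139, 117 and 116 (67.7 ± 7.10 per kb). H2afx stood above H2afj in 2 of 3 libraries. Below them H1f0, the linker histone gene, had 88, 38 and 94 counts (32.1 ± 13.4 per kb), and H3f3a had 119, 72 and 84 (26.2 ± 6.97 per kb). H1f0 stood above H3f3a in 2 of 3 libraries, so these neighbours did not differ beyond their spread either. H2afv, the minor H2A.Z gene here, had 33, 9 and 29 counts (14.5 ± 7.87 per kb) and was lowest of the counted variants in every library.

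**Figure D2:**
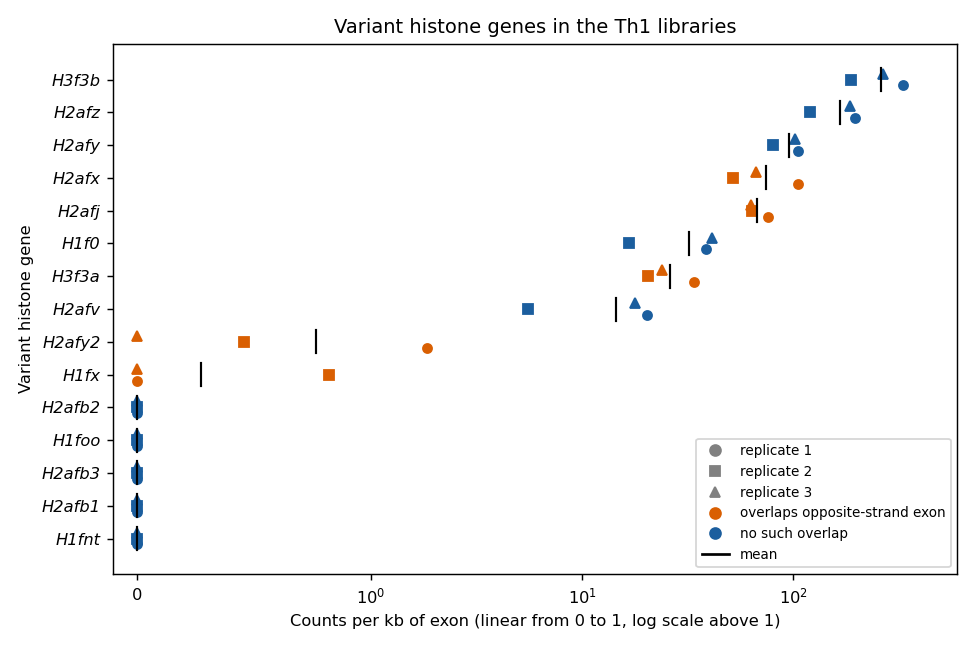
Counts per kb of exon (x axis, linear to 1 and logarithmic above) for the 15 variant genes (y axis), with 1 symbol per replicate, a line at the mean, and orange for genes that overlap an opposite-strand exon. H3f3b, H2afz and H2afy stand above the rest in every library, and 5 genes are at 0.

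Of the uncounted variants, H2afy2, the other macroH2A gene, had 4, 1 and 0 counts, and H1fx, a linker histone gene that is opposite to the gene Gm5577, had 0, 1 and 0 while Gm5577 had 2843, 2584 and 2637. Aifm2, opposite H2afy2, had 3, 4 and 4. H1fx also shares 24 bases with Gm47286 on its own strand. On the assigned strand, genes for the same H3 protein stood far apart, with H3f3b at 9.79, 9.13 and 11.1 times the counts per kb of H3f3a. These values are for replicates 1, 2 and 3. H3f3a shares 638 exon bases with the opposite-strand gene Gm17275, which had 2812, 2551 and 2028 counts, whereas H3f3b has no such overlap. The part of the overlap in the gap was not tested.

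Within families, variants held most of the H2A and H3 TPM but not of H1. Variants gave 91.3% ± 2.15 of H2A TPM and H3f3a with H3f3b 84.7%, 74.6% and 74.6% of H3 TPM. H1f0 gave 39.0%, 37.4% and 46.9% of H1 TPM. Every replication-dependent H2A member overlaps an opposite-strand exon, which bears on the H2A share.

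Of the replication-dependent families, H4 had 64, 45 and 49 counts over 13 genes, H1 had 48, 28 and 38 over 6, and H2B had 42, 29 and 39 over 16. H3 had 35, 37 and 50 counts over 12 genes, and H2A had 18, 18 and 15 over 18 genes. Summed TPM was highest for H4 in every library, at 60.8 ± 6.65 (SD, n = 3), followed by H3 (42.7 ± 9.19), H2B (40.3 ± 6.97), H1 (24.0 ± 8.15) and H2A (21.1 ± 2.55). H1 and H2A lay within their spread, H1 being the lower in replicate 2, and so did H3 and H2B. The counted genes were 4 of H4, 2 of H1, 2 of H3, 1 of H2B and 1 of H2A.

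All 10 counted replication-dependent members lie on chromosome 13, which holds 52 of the 65, and together they held 63.3%, 65.0% and 59.7% of the class's counts. The H2B gene Hist1h2bj (chr13:22043214-22043676) was highest per kb, with 29, 13 and 15 counts (41.0 ± 18.8 per kb), replicate 1 standing above the others. The H3 gene Hist1h3c had 13, 12 and 25 counts (34.1 ± 14.8 per kb), and replicate 3 was highest. The second H3 gene, Hist1h3a, had 11, 11 and 8 (18.7 ± 3.24 per kb), close together.

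The 4 H4 genes lay within the same range. Hist1h4b had 10, 11 and 9 counts (25.2 ± 2.52 per kb), Hist1h4d 4, 10 and 12 (22.1 ± 10.6 per kb), Hist1h4c 12, 5 and 9 (21.9 ± 8.89 per kb) and Hist1h4i 21, 9 and 12 (19.3 ± 8.59 per kb). The linker genes Hist1h1e, with 17, 12 and 12 counts (18.3 ± 3.86 per kb), and Hist1h1c, with 9, 15 and 7 (6.62 ± 2.67 per kb), and the H2A gene Hist1h2ae, with 5, 4 and 5 (10.1 ± 1.26 per kb), made up the rest. When these 10 genes were ordered by mean counts per kb, 8 of the 9 pairs of neighbours did not differ beyond their spread, the exception being Hist1h1e above Hist1h2ae. Genes further apart in that order can differ: Hist1h2bj and Hist1h4b stood above Hist1h1c in every library.

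The counted genes were unevenly spread over the loci. The cluster at chr13:23531050-23764358 held 28 members, of which 8 were counted, and 117, 102 and 128 counts. The group of 5 at chr13:22035164-22043676 held 2 counted members and 56, 30 and 33 counts. The 17 members at chr13:21715763-21837530 held 25, 19 and 24 counts and none was counted. Most of these 17 had under 50% of their 50-base stretches unique, as defined below, and a smaller share of the 28 did. Several of the 17 models held coding bases only. How far this bears on the spread over the loci was not tested. The 10 Hist2 genes at chr3:96219865-96270132 held 9, 5 and 5 counts, the 2 Hist3 genes on chromosome 11 had 0, 1 and 1, and Hist4h4 had 0 in every library.

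**Figure D3:**
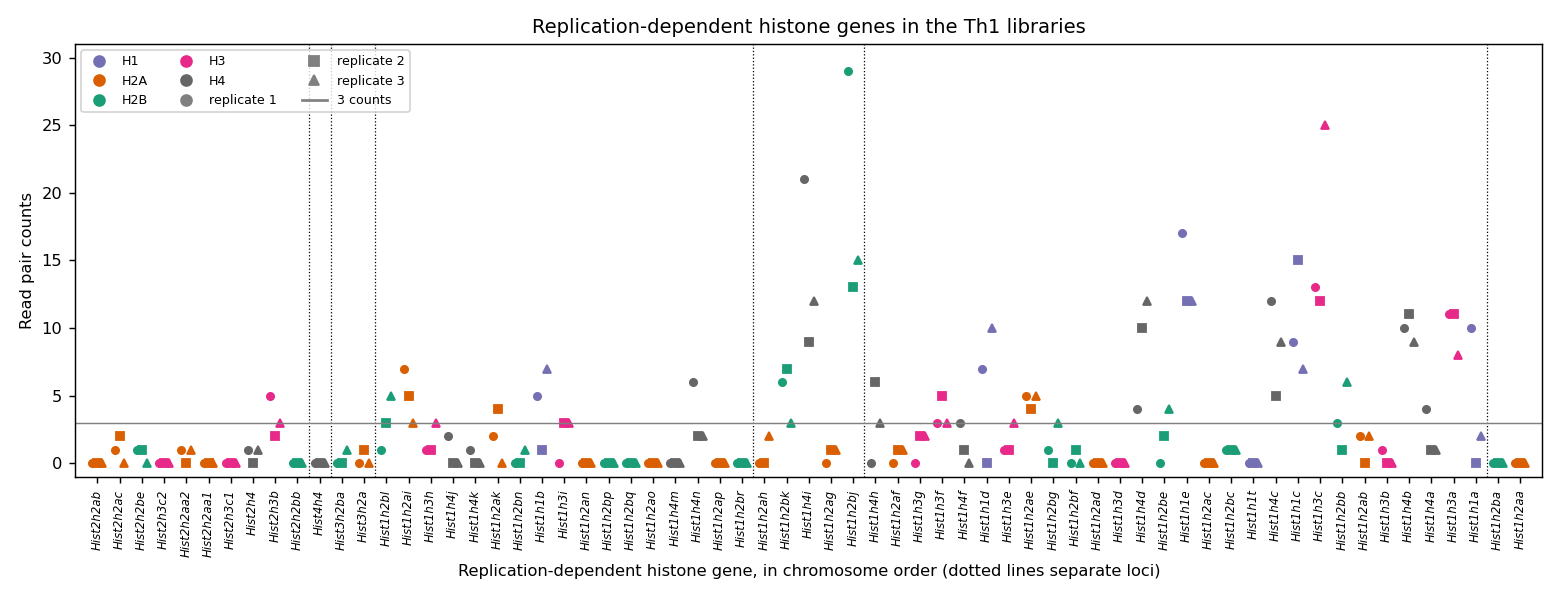
Read pair counts (y axis) of the 65 replication-dependent members in chromosome order (x axis), coloured by family, with 1 symbol per replicate, dotted lines between loci and a grey line at 3 counts. Hist1h2bj reaches 29 counts in replicate 1 and most members lie at or under the line.

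Gene models differ in how far they run past the stem-loop. In 29 replication-dependent members the model ends within 100 exon bases after it, and 8 of these were counted, with 132, 99 and 126 counts in all. In 13 members it runs further, and 2 of these were counted (Hist1h4i and Hist1h1c), with 37, 33 and 31 counts in all. None of the 23 members without a stem-loop in their transcripts was counted, with 38, 25 and 34 counts in all. Median levels were 2.82, 0.457 and 1.65 counts per kb in those sets, with ranges from 0 to 41.0, 19.3 and 12.7, so the sets overlapped. Short models and models of coding bases only also offer fewer bases on which a pair can be counted.

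**Figure D4:**
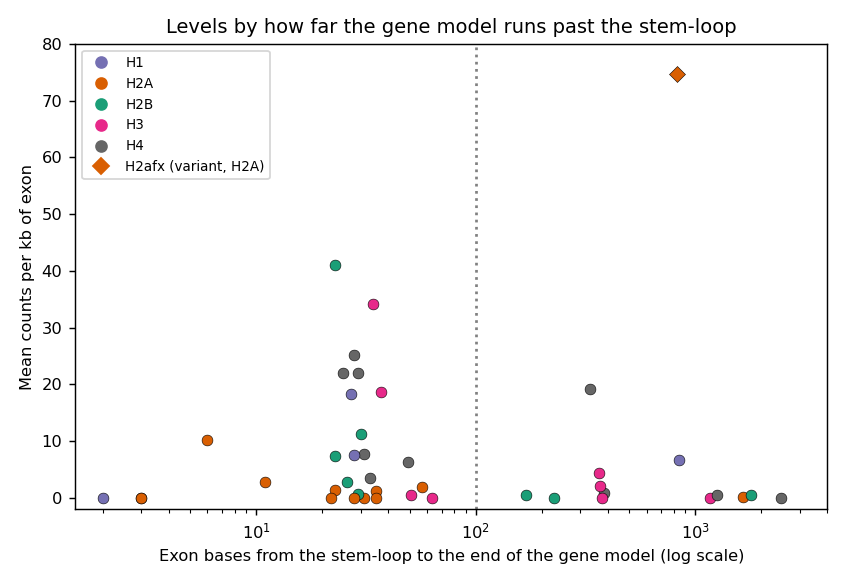
Mean counts per kb (y axis) against exon bases from the stem-loop to the end of the gene model (x axis, log scale) for 42 replication-dependent members and H2afx, coloured by family, with a dotted line at 100 bases. Hist1h2bj, at 41.0 per kb, is the highest replication-dependent point, and H2afx, at 74.7 per kb, is the diamond.

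Near-identical copies limit what single genes show, since a pair that maps to several places has no option in the counting command to be counted. A 50-base stretch was called unique when it occurs, on either strand, in no other gene's transcripts. Genes with overlapping exons at the same locus were left out of this comparison, so bases shared with them can still be called unique. All 15 variants had unique stretches in 50% or more of their model, and 28 replication-dependent members did, of which 6 were counted (21.4%). Another 36 had some unique stretches under that share, of which 4 were counted (11.1%), and Hist2h2aa2 had none. Values of replication-dependent members are therefore uncertain as levels of single genes. Because every member under 50% is replication-dependent, pairs left uncounted also bear on the class sums, the class ratios, the family shares and the locus sums. How far they do was not tested. Same-strand overlap adds to this in Hist1h2be, Hist2h2aa1, Hist2h3c1, Hist2h2bb and Hist3h2a, where a pair that overlaps both genes is not assigned, and Hist2h3c1 lies wholly inside Gm20634.

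Opposite-strand genes carried far more counts than the H2A members they face. Exons of 26 of the 80 members overlap an opposite-strand exon (21 replication-dependent, 5 variant), beside 22.1% of protein-coding genes, and these include all 18 replication-dependent H2A genes. Among the opposite genes are 19 short models annotated as miRNA, each inside an H2A exon: 17 face replication-dependent members and 2 face H2afj and H2afx. They are 129 to 144 bases long, so any overlapping fragment counts, and levels per kb are not given for them. The pair with the most counts is printed because they read as H2A coding sequence backwards. Both are shown 5′ to 3′ on their own (minus) strand of GENCODE M21, and capitals mark the 8 bases at which they differ, with 133 of 141 bases identical (94.3%). Gm44364 lies at chr6:136808543-136808683 and Gm44335 at chr9:44334965-44335105.
Gm44364: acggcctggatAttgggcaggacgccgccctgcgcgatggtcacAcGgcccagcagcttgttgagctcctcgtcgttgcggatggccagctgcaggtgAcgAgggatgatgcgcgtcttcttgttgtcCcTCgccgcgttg
Gm44335: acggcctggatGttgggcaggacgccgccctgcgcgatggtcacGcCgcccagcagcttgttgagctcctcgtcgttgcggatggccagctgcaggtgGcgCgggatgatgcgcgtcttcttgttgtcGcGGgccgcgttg
Each of the 19 matches the reverse complement of its H2A exon.

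Of these 19 genes 13 were counted (68.4%), beside 2.82% of the 2202 miRNA-annotated genes, and they make up 13 of the 62 counted genes of that annotation. Gm44364 had 2396, 2314 and 2240 counts, where H2afj, on the other strand of the same bases, had 139, 117 and 116. Gm44335 had 1655, 1395 and 1462, where H2afx had 146, 72 and 92. They rank 2 and 4 by total counts among miRNA-annotated genes, and the fold over the member was 18.8 ± 1.35 and 15.5 ± 4.03 (SD, n = 3).

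The same held for the replication-dependent H2A genes. The 17 genes opposite them had 548, 500 and 473 counts in all, against 18, 18 and 15 on the members. All of these counts fell on the 15 without another gene on their own strand. Their members had 17, 18 and 14 counts, a fold of 31.3 ± 3.12 (SD, n = 3). By counts, the first 4 were Gm44394, opposite Hist1h2ae, with 106, 130 and 112 counts, Gm44454, opposite Hist1h2ak, with 123, 96 and 84, Gm44486, opposite Hist1h2ag, with 101, 75 and 75, and Gm44367, opposite Hist1h2ai, with 81, 86 and 76. Near-identical copies make these uncertain as levels of single genes too: Gm44394, Gm44486 and Gm44367 have no unique 50-base stretch, and 361, 338 and 334 of the summed counts fell on genes without any. In Gm44364 95.7% and in Gm44335 51.1% of 50-base stretches are unique. In 13 of the 19 pairs the opposite gene stood above the member in every library. The other 6 include 5 at 0 counts throughout (Gm44344, Gm19658, Gm44466, Gm47313 and Gm47311), the last pair of which also overlaps another gene on its own strand. The gene opposite H2afj had 19.1 ± 1.15 times the counts of the highest gene opposite a replication-dependent member, and that opposite H2afx 12.4 ± 1.47 times.

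Longer opposite genes differed among themselves. Gm17275, which shares 638 bases with the exons of H3f3a, had 2812, 2551 and 2028 counts against 119, 72 and 84 on H3f3a, and H3f3aos, also opposite, had 0, 3 and 4. 4930558J22Rik, sharing 223 bases with Hist1h4b, had 371, 427 and 353 counts against 10, 11 and 9. Gm20628 had 48, 56 and 50, opposite Hist2h3b (5, 2 and 3) and Hist2h2bb (0, 0 and 0). Opposite the Hist2 H2A genes, Gm20633 had 0, 0 and 0 (Hist2h2aa1 0, 0 and 0), Gm20632 had 1, 0 and 1 (Hist2h2aa2 1, 0 and 1) and Gm15444 had 0, 1 and 1 (Hist2h2ab 0, 0 and 0), so these 3 did not exceed 3 counts on either strand. Counts on both strands of these loci cannot be told apart by gene of origin without knowing the strand of the libraries.

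**Figure D5:**
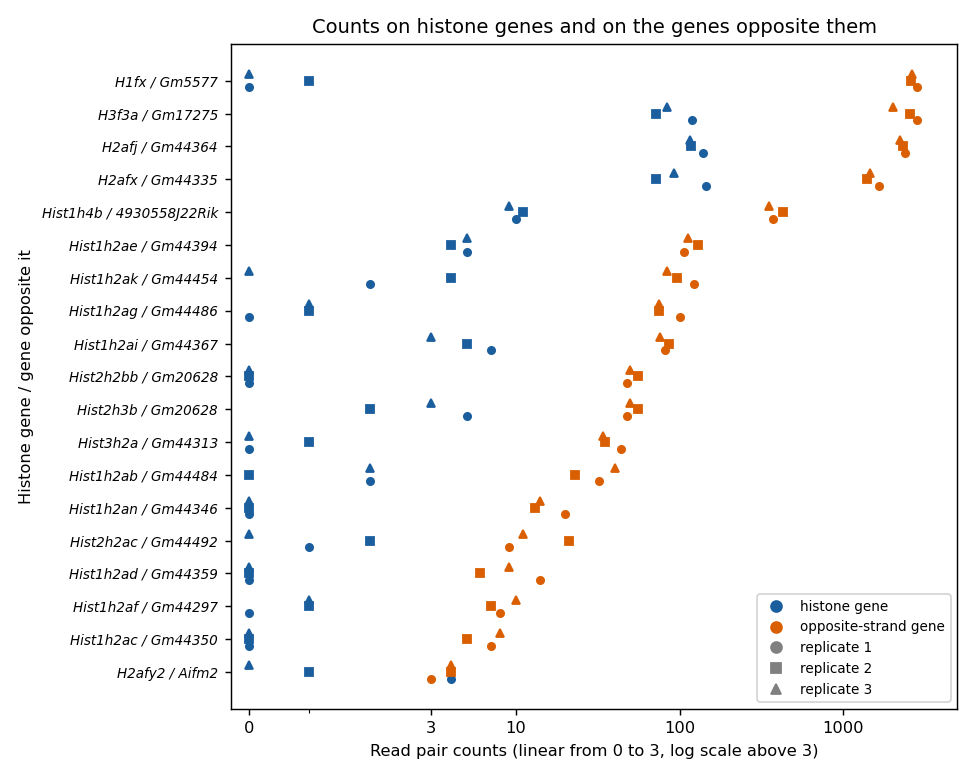
Read pair counts (x axis, linear to 3 and logarithmic above) on histone genes (blue) and on the genes opposite them (orange) for pairs with a mean above 3 on either strand (y axis), with 1 symbol per replicate and H3f3aos not drawn. Gm44364 has 2240 to 2396 counts where H2afj has 116 to 139.

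Variation between libraries was tested per gene by chi-square against the Poisson error of counting, at edgeR's TMM library sizes, and Benjamini-Hochberg adjustment over all genes tested, with 35.6% of 10216 genes called at 0.05. Of 12 members tested (8 variants and 4 replication-dependent), 2 were called (16.7%), both of them variants, and neither overlaps an opposite-strand exon. The overlap goes with the background: 21.8% of protein-coding genes without it were called and 42.1% with it, where the members gave 2 of 9 (22.2%) and 0 of 3. For H2afy, CPM at these sizes were 181, 216 and 197, highest in replicate 2 (adjusted p = 0.0279), and for H1f0 they were 22.2, 15.1 and 26.6, lowest in replicate 2 (adjusted p = 0.0342). The 3 values of both genes thus varied by more than counting error but in different directions. H2afv had 8.32, 3.57 and 8.22 (adjusted p = 0.119), H2afz 88.0, 84.5 and 93.2 (adjusted p = 0.641), and H3f3b 249, 221 and 224 (adjusted p = 0.0706). None of these 3 was called at these library sizes, which does not show equal levels.

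The calls depended on the setting and on single libraries. With edgeR's common dispersion added to the Poisson variance no member was called (0 at an unadjusted p under 0.05), and without replicate 2 none was called either (3 at an unadjusted p under 0.05). Without replicate 3 H2afy was called but not H1f0, and without replicate 1 H1f0 was called with H2afj but not H2afy. With the DESeq2 size factors H2afj was called as well. At total counts without TMM scaling, H2afy was not called, and H1f0, H2afv, H2afx, H2afz and H3f3b were. With no filter on low counts H2afy was not called either, and H1f0, H3f3b, Hist1h1a and Hist1h4h were. Among protein-coding genes without opposite-strand overlap, 59.7% were lowest in replicate 2, as H1f0 was, with a median log2 ratio of replicate 2 to the mean of the others of -0.20, against 0.13 for those with overlap. The part of this in the members' variation was not tested.

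For the transcription, processing and decay of replication-dependent histone mRNA, 21 of 21 listed genes were counted, beside 45.1% of all protein-coding genes. Highest were Ccne2 (cyclin E2) at 97.2 ± 2.94 TPM, Srrt at 92.9 ± 13.1 and Ncbp2 at 77.1 ± 11.8 (SD, n = 3). The last 2 of them act at the mRNA cap. Slbp, the stem-loop binding protein gene, had 371, 171 and 340 counts and 26.1 ± 8.69 TPM. Npat, the coactivator of histone gene transcription, had 141, 73 and 105 counts. Slbp and Ccne2 are among the 9 of these 21 that overlap an opposite-strand exon.

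All 12 replication-coupled chaperones and 20 of 20 variant chaperones and remodellers were counted too. In the first list Rbbp7 (109 ± 28.9 TPM), Chaf1a (65.4 ± 12.2), the large subunit of the assembly factor CAF-1, and Nasp (67.2, 38.4 and 60.1 TPM by library), a carrier of H3 and H4, were highest. In the second Npm1 (1850 ± 344), Ssrp1 of the FACT complex (212 ± 56.3) and Nap1l1 (155 ± 33.6) were highest. Median levels of the 3 lists were 19.5, 26.5 and 12.7 TPM, beside 0.386 TPM over all protein-coding genes and 0.628 for replication-dependent histone genes. These genes were chosen for known roles with earlier results in view, so nothing particular to them follows. Rbbp7, Chaf1a and Ssrp1 overlap opposite-strand exons. Cenpa, the centromeric H3 variant whose symbol the rule does not take, had 129, 47 and 84 counts (7.95 ± 3.51 TPM).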

How the data were processed

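RNA sequencing of 3 mouse T-helper 1 libraries, labelled total RNA, was analysed. The deposited files hold raw counts. The authors assigned read pairs to genes with featureCounts 1.4.6-p4 (both ends aligned, strand option 1, exons by gene, GENCODE vM13), per the file headers, on mm10 per the labels. Counts of pairs that map to several places or overlap several genes were not switched on in the command that the authors' headers record. No aligner version is given in the sources used here. Exon lengths came from the same files. TPM, counts per kb and CPM were computed here from the deposited counts. Symbols and transcript sequences came from GENCODE M21 (50376 identifiers matched, 224 not).

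The members, gene lists and tests were chosen with earlier results of these data known. Named genes were the variants over 3 counts in at least 1 library, replication-dependent members over 3 in every library, members called in the variation test, the 3 highest of each list, list genes at 0 counts, and genes that overlap a named member. H1fx, members at 0, loci, Hist2h2aa2, genes opposite uncounted members, Slbp, Npat and the markers were named after their values were seen or as background.

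With 1 group, there was no contrast between conditions. The chi-square test (2 degrees of freedom) used genes passing filterByExpr. On simulated counts for 10216 genes it recovered 49% of 200 genes changed 1.5-fold, 84.5% at 2-fold and 99.5% at 3-fold. The simulated counts had Poisson error only and were tested at the total library sizes that made them, without TMM scaling. They hold no further spread between libraries, so these shares cannot be taken as recovery in the deposited data. Library pairs differed beyond counting noise (chi-square per degree of freedom 3.85 to 13.7), so all 3 were kept as separate samples. Alternatives covered thresholds, pseudocount, library scaling, left-out members and left-out libraries. Software was R 4.3.3, edgeR 4.0.16, DESeq2 1.42.0, Python 3.11.15, pandas 2.3.3, numpy 2.4.6, scipy 1.17.1 and bedtools 2.31.1.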

Additional observations from a re-analysis of the deposited data

How the results depend on the processing

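Replication-dependent genes counted (10) became 3 at 10 counts or more, 18 at 1 TPM, 24 at more than 3 counts in any library and 6 among members with 50% or more unique stretches (an alternative chosen after seeing the data), and were 10 to 12 with a library left out. Variants counted (8) became 5 without members overlapping an opposite-strand exon and stayed 8 with each library left out. The median difference (-2.32) was -3.39 with log2(TPM + 0.1) and -1.57 as a mean over members. It was -0.46 without overlapped members, -3.86 without germ cell members, and 0.18 ± 0.49 (SD, n = 3) with classes set by the stem-loop. With a library left out it ran from -2.62 to -2.06. The summed log2 ratio (-1.07) was -3.52 on counts and -0.62 without the highest member of each class, and ran from -1.16 to -0.98 with a library left out. Genes that varied between libraries (3641) fell to 9 with the common dispersion added, and were 971 to 3795 with a library left out, 971 without replicate 2. Members that varied (2, H2afy and H1f0) were 5 on total counts and 4 without the filter on low counts, H2afy being lost in both, 0 with the dispersion added and 0 to 2 with a library left out. Of 47 alternative values, 28 were classed as kept, within a set fold for numbers of genes and within the SD of the main value for levels. That class took in 5278 varying genes on total counts and 3 varying members with the DESeq2 size factors. It compared numbers and not names: without replicate 1 the 2 members called were H1f0 and H2afj. Other than the alternatives' own construction, the cause of these changes was not tested. At this depth, most replication-dependent genes lie near the limit of 3 counts. No paired analysis was possible because there is 1 group.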
